A study of Mus musculus with 6 samples.

Results

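The genes described here code for the nuclear-encoded parts of the mitochondrial respiratory chain and of ATP synthase in mouse liver. They were chosen by symbol alone: those beginning Nduf, Uqcr, Cox4 to Cox8 or Atp5, the genes Sdha, Sdhb, Sdhc and Sdhd, and Cyc1 and Cycs. The rule found 89 of the 19057 named genes on the array, and 79 of them had a probe above background on enough arrays to be tested. Of the 89 genes, 78 are subunits of complexes I to V, 8 are complex I assembly factors, and the others are cytochrome c, the supercomplex factor Cox7a2l and the pseudogene entry Ndufs5-ps.

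Liver RNA was read on an Illumina bead array from 6 C57Bl/6N mice aged 8 weeks. The 3 Tuni mice received tunicamycin in the peritoneum at 2.5 mg/kg. The 3 Ctrl mice received the same volume of vehicle, and liver was taken from all 6 animals after 12 hours. Tunicamycin was dissolved in DMSO and diluted in PBS with glucose. It stops cells from attaching sugar chains to asparagine residues, so that misfolded glycoproteins collect in the endoplasmic reticulum. The labels used here do not state sex, chip or scan batch. Nothing in them says that the mice came from separate litters or cages, so the p-values speak only to the scatter of these 6 arrays.

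Complexes I and II feed electrons from NADH and succinate to ubiquinone, complex III passes them to cytochrome c, and complex IV hands them to oxygen. Protons pumped on the way drive complex V, the ATP synthase. Most subunits are made from nuclear genes and imported, a small set of core subunits is encoded in mitochondrial DNA, and assembly factors help to build a complex without staying in it. Hepatocytes are rich in mitochondria and draw on this system for gluconeogenesis, urea synthesis and fatty acid oxidation.

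Each array carried 45281 probes, of which 15503 to 16603 were detected (detection p under 0.05), with raw medians of 88.9 to 96.8. Arrays of 1 group correlated at 0.989 to 0.994 and arrays of different groups at 0.887 to 0.901, across the probes kept. Values below are normalized log2 intensities, and a gene was called higher or lower at an adjusted p under 0.05 in limma. By that rule 62.5% of the 11678 items tested were called, 31.4% lower and 31.0% higher, and the middle of all log2 fold changes lay at -0.01. A large share of the liver transcriptome therefore differed, and counts of respiratory genes are read against these shares.

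Respiratory chain and ATP synthase transcripts were mostly lower in Tuni livers. Of the 79 genes tested, 56 fell, 5 rose and 18 did not pass the test. This is 70.9% lower, against 31.4% of all items. Among the 5 that rose, Cox6a2 passed the detection filter through the Tuni arrays alone, so its rise was fixed by the filter. The median log2 fold change was -0.44, and 71 of the 79 estimates were negative. The falls were shallow: only Cox7a1, Cox6c and Ndufb10 had an estimate at or below -1, and the range ran from -1.35 (Cox7a1) to 4.75 (Cox6a2). For 64 genes all 3 Tuni arrays lay below all 3 Ctrl arrays, as for 33.5% of all items, and for 6 genes all lay above, as for 33.2% of all items. Among bright items, with a mean log2 intensity of 10 or more, 40 of the 55 respiratory genes fell and 3 rose, while 35.6% of all bright items fell and 40.3% rose.

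**Figure D1:**
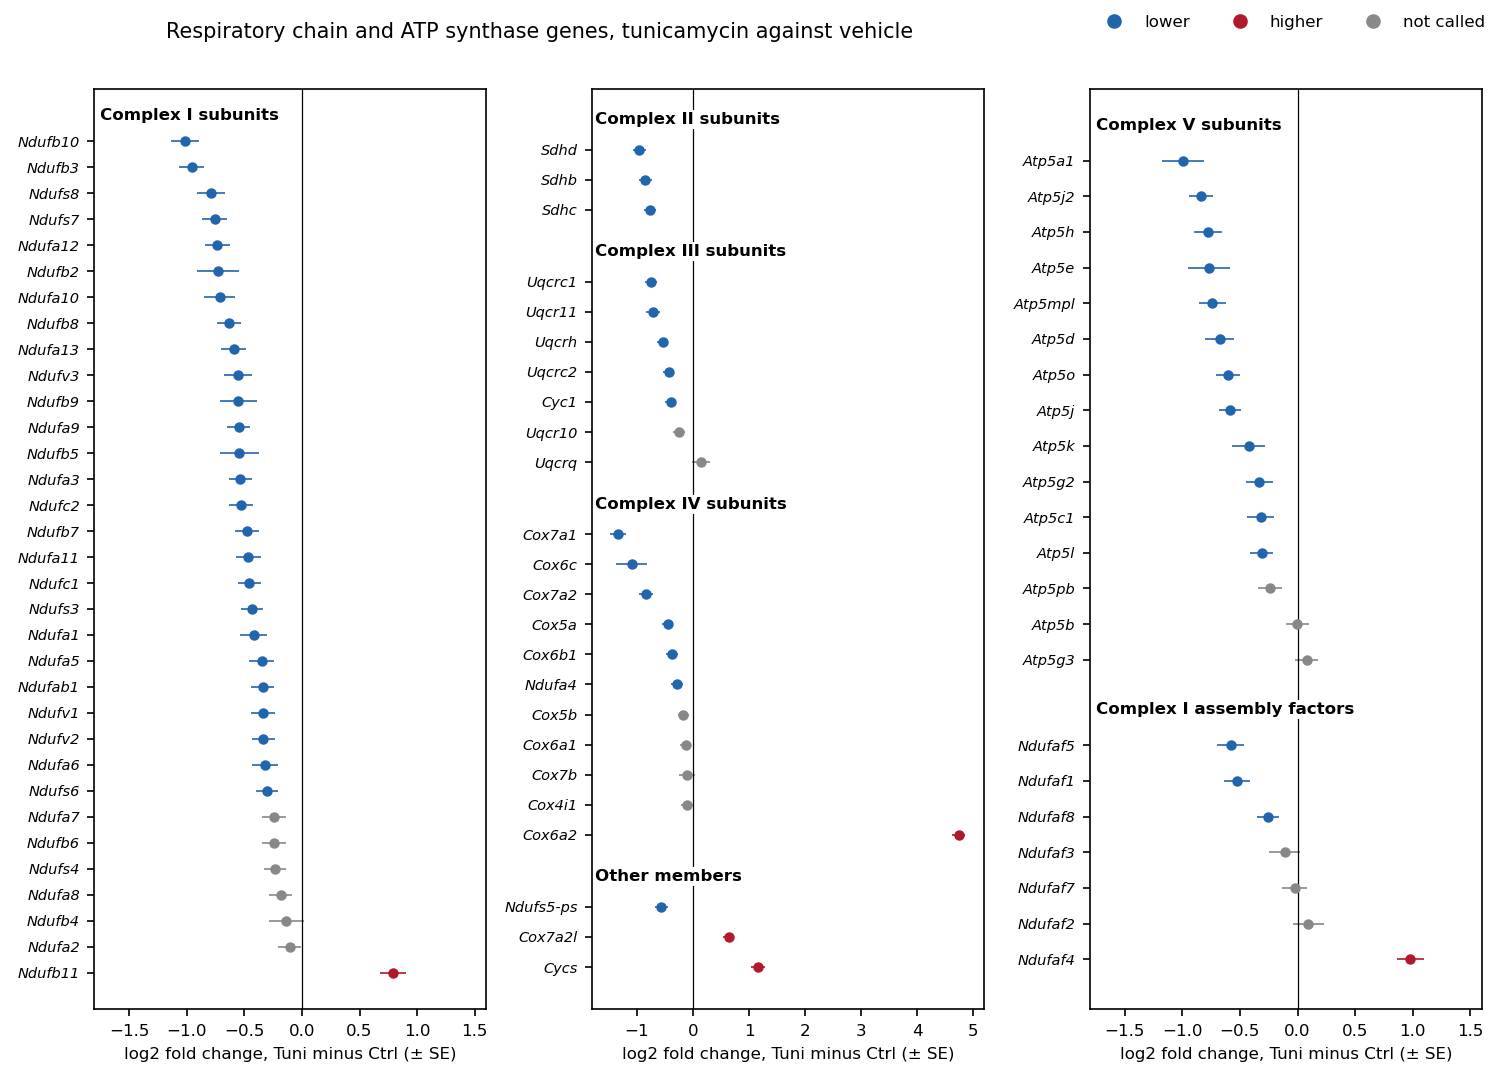
Log2 fold change of the 79 genes tested (x axis, Tuni minus Ctrl, with the standard error as bars), ordered within each complex, with the call in colour. Blue points left of 0 fill all complexes, the 5 red points are Cox6a2, Cycs, Ndufaf4, Ndufb11 and Cox7a2l, and the middle panel has a wider axis to hold Cox6a2 at 4.75.

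The tissue is a mixture of cells, so fewer cells of a type and less RNA per cell cannot be told apart here. Of the 4 hepatocyte markers tested 3 fell, against 31.4% of all items. Apoa1, the brightest, did not pass (-0.04, adjusted p = 0.735). The summed raw signal of the 7 markers, before normalization, was 33502 to 42054 in Tuni livers and 55868 to 60592 in Ctrl livers. Apoa1 made up a large part of it, with 17028 to 19733 in Tuni livers and 21244 to 24151 in Ctrl livers. Ttr, a plasma carrier of thyroid hormone, fell by 0.70 on the log2 scale, while the probes for Alb, Tat and Fgb were not above background on enough arrays to be tested. Kupffer cell markers were also lower, in 6 of 7 tested against 31.4% of all items. Their summed raw signals were 1039 to 2824 in Tuni livers and 2831 to 4168 in Ctrl livers. Calls among markers of endothelial cells (2 of 5 lower), stellate cells (2 of 4 lower), neutrophils (1 of 3 higher) and erythroid cells (1 of 2 lower) were mixed or few. Their part in the values of the respiratory genes was not tested.

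Subunits fell in each of complexes I to V. Of the 69 tested, 52 fell, 2 rose and 15 did not pass. Over all items, 31.4% were lower and 31.0% higher. The rise of 1 of the 2, Cox6a2, was fixed by the detection filter. The median log2 fold change of the 69 was -0.46. Complex II had the deepest median, -0.85 over 3 subunits, followed by complex V at -0.59 over 15, complex I at -0.47 over 33, complex III at -0.44 over 7 and complex IV at -0.29 over 11. The differences between complexes were not tested. On single arrays, the complex II median relative to the Ctrl mean was -0.91, -0.88 and -0.87 in Tuni livers, against -0.14, 0.03 and 0.05 in Ctrl livers. The complex IV median was -0.31, -0.20 and -0.39 in Tuni livers, against -0.03, 0.02 and 0.04 in Ctrl livers. For each of the 5 complexes the 3 Tuni arrays lay below the 3 Ctrl arrays. Under each alternative processing complex II stayed deepest and complex IV shallowest, but the order of complexes I, III and V depended on the processing. With no background correction, complex III was at -0.43, complex I at -0.35 and complex V at -0.31. Sizes moved too, as the complex IV median became -0.52 when each array was scaled to 1 median and -0.12 with no detection filter.

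**Figure D2:**
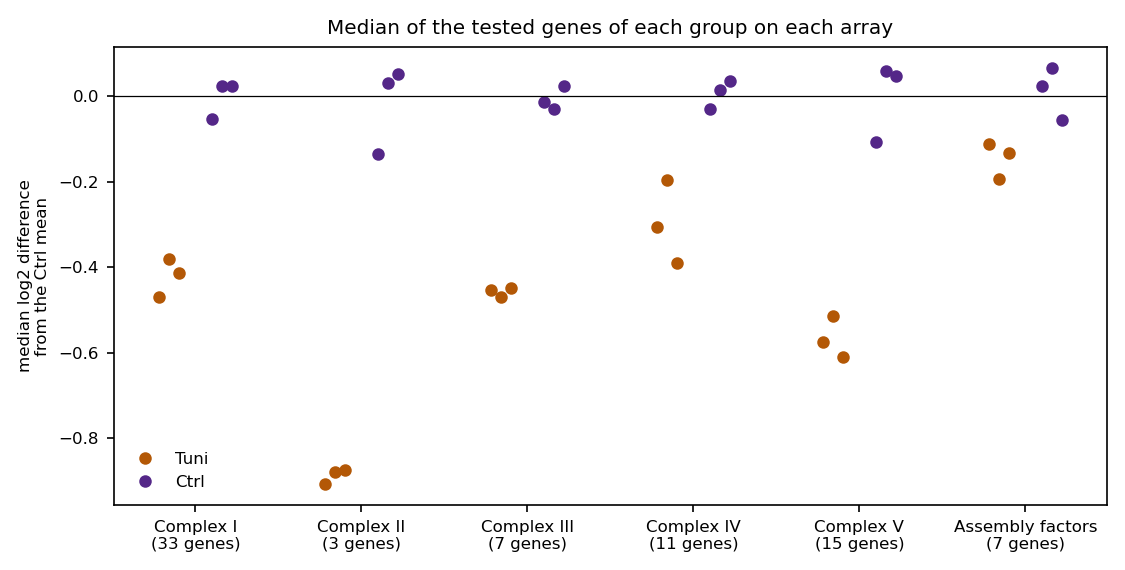
Median over the tested genes of each group, on each array (y axis, log2 difference from the mean of the 3 Ctrl arrays), with Tuni arrays in orange and Ctrl arrays in purple. Tuni arrays lie between -0.91 and -0.87 for complex II and between -0.19 and -0.11 for the assembly factors, the extremes of the plot.

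Complex I, the NADH dehydrogenase, is the largest complex, and 26 of its 33 tested subunits fell, against 31.4% of all items. All 5 core subunits tested, which carry the flavin and iron-sulfur clusters or line the ubiquinone site, fell, with a median of -0.43. Of the 28 accessory subunits, which surround the core, 21 fell, 1 rose and 6 did not pass, with a median of -0.47. The probe for Ndufs1, a core iron-sulfur subunit, was not tested because it was not above background on enough arrays.

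Among the core subunits Ndufs8, which binds iron-sulfur clusters, read 10.41, 10.50 and 10.30 in Tuni livers and 10.97, 11.28 and 11.32 in Ctrl livers. The groups did not overlap, and the fold change was -0.79 ± 0.12 (SE) on the log2 scale (adjusted p = 0.000292), or 1.73-fold lower. Ndufs7, another iron-sulfur subunit, read 10.50, 10.63 and 10.61 in Tuni livers and 11.19, 11.37 and 11.46 in Ctrl livers (-0.76 ± 0.11, adjusted p = 0.000186). Here too each Tuni array was below each Ctrl array. Ndufv1, which binds NADH and the flavin, changed less, with 11.53, 11.50 and 11.50 in Tuni livers against 11.72, 11.92 and 11.92 in Ctrl livers (-0.34 ± 0.10, adjusted p = 0.0167). Its call was lost without Ctrl replicate 2 (adjusted p = 0.0649) or without Ctrl replicate 3 (adjusted p = 0.0570).

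The deepest falls in complex I were in accessory subunits of the membrane arm. Ndufb10 read 7.54, 7.85 and 7.74 in Tuni livers, against 8.61, 8.87 and 8.70 in Ctrl livers. No Tuni array reached the lowest Ctrl array, and the gene was 2.02-fold lower (-1.01 ± 0.12, adjusted p = 4.43e-05). A second probe for it gave -0.86. Ndufb3 read 9.55, 9.74 and 9.60 in Tuni livers, against 10.57, 10.69 and 10.49 in Ctrl livers, again without overlap, and was 1.94-fold lower (adjusted p = 3.13e-05). Ndufab1, the mitochondrial acyl carrier protein, which also serves lipoic acid synthesis, fell by 0.34 on the log2 scale (adjusted p = 0.0136), and its 4 probes all fell, by -1.16 to -0.33. Its call was lost without Tuni replicate 1 (adjusted p = 0.0562). The other 18 accessory subunits that fell ranged from -0.73 (Ndufa12) to -0.30 (Ndufs6).

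The 6 complex I subunits that did not pass were Ndufa2, Ndufa7, Ndufa8, Ndufb4, Ndufb6 and Ndufs4, with estimates between -0.25 and -0.11. Ndufa7 and Ndufs4 came close, each at an adjusted p of 0.0609. Under the 17 alternatives, Ndufa7 was called lower in 8, Ndufs4 in 7 and Ndufb6 in 6. Dimmer Ndufs4 probes gave -0.59 and -0.64 and were called lower when tested by themselves, and another gave -0.37 without a call. A dimmer Ndufb6 probe gave -0.57 and was also called lower. Ndufb11, a small membrane-arm subunit, was called higher, with 5.84, 5.85 and 5.80 in Tuni livers against 4.88, 5.07 and 5.17 in Ctrl livers (0.79 ± 0.11, adjusted p = 0.000138). The arrays were apart, but this probe was dim and a second probe of the gene gave 0.07 without a call. Its estimate became 0.26 with no background correction. Ndufs5-ps, annotated as a pseudogene of a complex I subunit whose probe may also bind the parent transcript, was 0.57 lower on the log2 scale (adjusted p = 0.00181).

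Complex II, succinate dehydrogenase, links the citric acid cycle to the chain, and its 3 tested subunits all fell, against 31.4% of all items. Sdhb, the iron-sulfur subunit, read 9.70, 9.73 and 9.83 in Tuni livers, against 10.43, 10.73 and 10.66 in Ctrl livers. It was 1.81-fold lower (-0.85 ± 0.11, adjusted p = 0.000104) with no overlap, and a second probe gave -0.70. Sdhc, a membrane anchor with a share in the heme and ubiquinone site, read 10.68, 10.59 and 10.48 in Tuni livers and 11.36, 11.38 and 11.32 in Ctrl livers. That is 1.71-fold lower (-0.77 ± 0.10, adjusted p = 0.0001). Sdhd, the other anchor, read 4.758, 4.992 and 5.005 in Tuni livers and 5.744, 5.870 and 6.025 in Ctrl livers, 1.95-fold lower (-0.96 ± 0.12, adjusted p = 5.94e-05). Sdhd was the dimmest of the complex and its estimate became -0.31 with no background correction. Sdha, which holds the flavin and the succinate site, had no probe above background on enough arrays.

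Complex III, the cytochrome bc1 complex, had 5 of 7 tested subunits lower and none higher, against 31.4% and 31.0% of all items. Uqcrc1, a large core protein on the matrix side, read 10.71, 10.65 and 10.61 in Tuni livers and 11.23, 11.48 and 11.51 in Ctrl livers. It was 1.68-fold lower with no overlap (-0.75 ± 0.11, adjusted p = 0.000208). The small subunit Uqcr11 read 12.08, 12.28 and 12.19 in Tuni livers and 12.72, 12.91 and 13.09 in Ctrl livers (-0.72 ± 0.12, adjusted p = 0.000533). The hinge protein Uqcrh, which sits beside cytochrome c1, read 12.16, 12.29 and 12.22 in Tuni livers and 12.75, 12.77 and 12.77 in Ctrl livers (-0.54 ± 0.10, adjusted p = 0.000821). In both genes every Tuni array was the lower.

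Cyc1, cytochrome c1 itself, which gives electrons to cytochrome c, read 10.91, 11.003 and 10.88 in Tuni livers and 11.34, 11.30 and 11.36 in Ctrl livers. It fell by 0.40 on the log2 scale (adjusted p = 0.00519). Uqcrc2, the partner of Uqcrc1, fell by 0.44 (adjusted p = 0.00385). Uqcr10 at -0.25 (adjusted p = 0.0575) and Uqcrq at 0.15 (adjusted p = 0.467) did not pass. Uqcr10 was called lower under 8 of the 17 alternatives. The probe for Uqcrfs1, the Rieske iron-sulfur protein, was not tested.

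Cycs, the mobile carrier cytochrome c that also triggers apoptosis once it leaves mitochondria, went the other way. It read 12.25, 12.10 and 12.35 in Tuni livers, against 11.17, 11.19 and 10.86 in Ctrl livers. All Tuni arrays were above all Ctrl arrays, and the transcript was 2.24-fold higher (1.16 ± 0.13, adjusted p = 2.18e-05). Of its 3 probes, a second gave 0.79 and the dimmest 0.13. It therefore differed in direction from its electron donor Cyc1 and from most of complex IV, its acceptor, in the same 6 livers.

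Complex IV, cytochrome c oxidase, had 6 of 11 tested subunits lower, 1 higher and 4 not past the threshold. Over all items, 31.4% were lower and 31.0% higher. The 1 higher, Cox6a2, passed the detection filter through the Tuni arrays alone, so its direction was fixed by the filter. Cox6c, a small nuclear-encoded subunit, read 9.17, 10.10 and 9.84 in Tuni livers and 10.28, 10.87 and 11.26 in Ctrl livers. It was 2.14-fold lower (-1.10 ± 0.27, adjusted p = 0.00511), but the spread within groups was wide: the highest Tuni array and the lowest Ctrl array were close, though the groups did not overlap. Its call was lost with no detection filter (adjusted p = 0.0549). Cox5a, a subunit on the matrix side, read 11.93, 11.97 and 12.04 in Tuni livers and 12.39, 12.39 and 12.52 in Ctrl livers (-0.45 ± 0.10, adjusted p = 0.00302). Those groups were well apart.

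Cox4i1, a regulatory subunit often used as a mitochondrial loading marker, read 12.55, 12.62 and 12.49 in Tuni livers and 12.63, 12.73 and 12.62 in Ctrl livers. The groups overlapped slightly and the difference did not pass (-0.11 ± 0.10, adjusted p = 0.392). Cox5b (-0.18, adjusted p = 0.147), Cox6a1 (-0.13, adjusted p = 0.287) and Cox7b (-0.11, adjusted p = 0.547) did not pass either. When each array was scaled to 1 median, Cox5b (-0.44, adjusted p = 0.0124) and Cox6a1 (-0.38, adjusted p = 0.0340) were called lower. Cox6b1 fell by 0.37 (adjusted p = 0.0110). Ndufa4, first named as a complex I protein and now placed in complex IV, fell by 0.29 (adjusted p = 0.0401). Its call was lost when any array but Tuni replicate 2 was left out (adjusted p = 0.0537 to 0.142).

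Several complex IV subunits exist as tissue isoforms, and these gave the extremes of the whole set in the processing used here. Cox6a2, the heart and skeletal muscle form of subunit 6a, had raw signals of 521.9, 612.0 and 871.0 in Tuni livers against 94.8, 94.6 and 88.8 in Ctrl livers, where raw array medians lay at 88.9 to 96.8. On the log2 scale it read 9.031, 9.003 and 9.239 in Tuni livers and 4.40, 4.41 and 4.22 in Ctrl livers. It was not above background on any Ctrl array, so the measured difference (4.75 ± 0.11, adjusted p = 2.11e-09) is given as at least 23.5-fold higher. It passed the filter through the Tuni arrays alone and so had to be higher among genes tested. The estimate became 3.42 with an offset of 50 and 2.55 with no background correction, and with any Tuni array left out the probe no longer met the detection rule. Of 7 muscle and heart markers, 6 were detected on no array and Myh7 was lower (-0.61, adjusted p = 0.0154), and the list's summed raw signal was 611 to 676 in Tuni livers and 651 to 667 in Ctrl livers. The 3 brown fat markers were also detected on no array. The liver form, Cox6a1, read 12.72, 12.74 and 12.76 in Tuni livers and 12.78, 12.92 and 12.91 in Ctrl livers.

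Cox7a1, the muscle and brown fat form of subunit 7a, moved opposite to Cox6a2. It read 5.57, 5.23 and 5.53 in Tuni livers and 6.58, 6.76 and 7.04 in Ctrl livers. With no overlap it was 2.54-fold lower (-1.35 ± 0.15, adjusted p = 2.09e-05), the deepest fall of the 79 genes in this processing. With no background correction it was -0.59, less deep than Cox6c at -1.02 and Ndufb3 at -0.88. Cox7a2, the form found in most tissues, read 6.04, 6.02 and 6.25 in Tuni livers and 6.782, 6.999 and 7.048 in Ctrl livers, 1.79-fold lower (-0.84 ± 0.12, adjusted p = 0.000146). Cox7a2l, a related gene classed as a supercomplex factor, read 10.99, 10.88 and 10.94 in Tuni livers and 10.37, 10.35 and 10.18 in Ctrl livers. It was 1.55-fold higher (0.64 ± 0.10, adjusted p = 0.000402) on every Tuni array. Its protein and the supercomplexes of complexes III and IV were not measured. Cox4i2, Cox6b2, Cox7b2, Cox8b and Cox8c, isoforms of lung, testis, muscle or other tissues, were not tested.

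**Figure D3:**
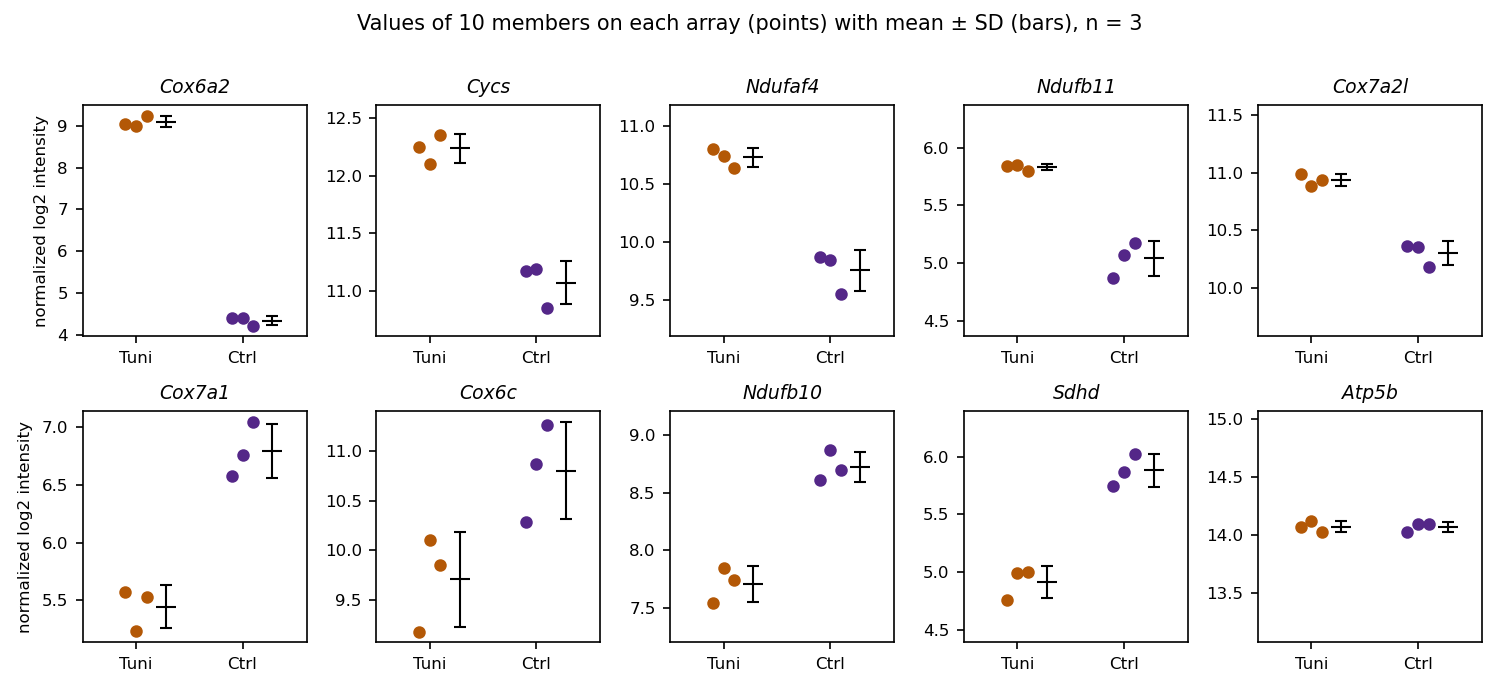
Normalized log2 intensity of 10 genes on each array (points), with group means and standard deviations over 3 arrays (bars). Each panel has its own y axis. The 5 genes of the upper row are higher on all Tuni arrays, Cox7a1, Cox6c, Ndufb10 and Sdhd are lower on all of them, and the arrays of Atp5b overlap.

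Complex V, the ATP synthase, had 12 of 15 tested subunits lower and none higher, against 31.4% and 31.0% of all items. The soluble F1 head had 4 of 5 lower (median -0.68), and the membrane Fo part with the stalks had 8 of 10 lower (median -0.51). Atp5a1, the alpha subunit of the head, read 5.73, 6.35 and 6.19 in Tuni livers and 6.78, 7.14 and 7.33 in Ctrl livers. It was 1.99-fold lower without overlap (-0.996 ± 0.18, adjusted p = 0.000847). Its probe was dim, with a mean raw signal of 176.8, and a second, still dimmer probe gave -0.24 without a call. Atp5c1, the rotating gamma shaft, read 12.04, 12.08 and 12.04 in Tuni livers and 12.22, 12.34 and 12.57 in Ctrl livers (-0.32 ± 0.12, adjusted p = 0.0338). Its call was lost without any 1 array other than Ctrl replicate 1 (adjusted p = 0.0603 to 0.136).

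Atp5b, the catalytic beta subunit, read 14.07, 14.12 and 14.02 in Tuni livers and 14.02, 14.10 and 14.09 in Ctrl livers, and the difference was -0.00142 ± 0.10 (adjusted p = 0.991). Its raw signals were 13942, 16911 and 17372 in Tuni livers and 17948, 18471 and 18967 in Ctrl livers, so before quantile normalization each Tuni array was lower. With each array scaled to 1 median it read -0.27 (adjusted p = 0.0949). Atp5g3, which codes for the same c-ring protein as Atp5g2, was at 0.08 (adjusted p = 0.522), and its sign turned under that scaling (-0.18, adjusted p = 0.279).

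In the membrane part, Atp5j2, subunit f, read 12.64, 12.74 and 12.60 in Tuni livers and 13.39, 13.54 and 13.56 in Ctrl livers. It was 1.79-fold lower (-0.84 ± 0.10, adjusted p = 6.13e-05). Atp5h, subunit d of the peripheral stalk, read 9.12, 9.33 and 9.41 in Tuni livers and 9.93, 10.16 and 10.11 in Ctrl livers (-0.78 ± 0.12, adjusted p = 0.000253). In neither gene did the groups overlap. Atp5g2, a c-ring gene, read 9.59, 9.57 and 9.38 in Tuni livers and 9.70, 9.93 and 9.89 in Ctrl livers (-0.33 ± 0.11, adjusted p = 0.0274), and its call was lost without Tuni replicate 3 (adjusted p = 0.0939), Ctrl replicate 2 (0.0985) or Ctrl replicate 3 (0.0808), and with each array scaled to 1 median (-0.27, adjusted p = 0.108). Atp5pb, subunit b of the stalk, was at -0.24 (adjusted p = 0.0653) and was called lower under 7 of the 17 alternatives. A second bright probe of it gave -0.43 and was called lower, while dim ones gave -0.24 and -0.26 without a call. Of the remaining subunits, Atp5d and Atp5e of the head and Atp5mpl, Atp5o, Atp5j, Atp5k and Atp5l of the membrane part and stalk all fell, from -0.77 (Atp5e) to -0.31 (Atp5l).

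Assembly factors split in direction, as did all items, of which 31.4% were lower and 31.0% higher. Of the 7 tested under Nduf symbols, 3 fell, 1 rose and 3 did not pass. Whether this differs from the shares of all items was not tested. The median of the 7 was -0.11. That median was -0.07 without Tuni replicate 2, -0.22 without Ctrl replicate 1 and -0.02 without Ctrl replicate 2. Ndufaf4, which acts early in complex I assembly, read 10.81, 10.74 and 10.64 in Tuni livers and 9.87, 9.84 and 9.55 in Ctrl livers. It was 1.97-fold higher with no overlap (0.98 ± 0.12, adjusted p = 5.02e-05), although a dimmer second probe gave -0.17 without a call. Ndufaf5, a methyltransferase-like enzyme known from human cells to modify Ndufs7, read 6.49, 6.18 and 6.49 in Tuni livers and 6.94, 7.05 and 6.91 in Ctrl livers (-0.58 ± 0.12, adjusted p = 0.00172). Ndufaf1, a chaperone of the membrane arm, read 8.74, 8.87 and 8.58 in Tuni livers and 9.31, 9.29 and 9.16 in Ctrl livers (-0.53 ± 0.11, adjusted p = 0.00235). Both were lower on each Tuni array. Ndufaf8 fell by 0.26 (adjusted p = 0.0400), a call lost when any 1 array was left out. Ndufaf2 (0.09), Ndufaf3 (-0.11) and Ndufaf7 (-0.03) did not pass.

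Assembly factors whose symbols lie outside the rule came from a separate list of 49 on the array, which also holds Atpif1, an inhibitor rather than an assembly factor. Of 43 tested, 17 fell, 11 rose and 15 did not pass, with a median of -0.14, against 31.4% lower and 31.0% higher over all items. For complex IV, 10 of 22 fell and 5 rose. The difference between assembly factors and subunits was not tested, and the probes of the factors were dimmer: the median level was 6.93 for the 7 factors and 11.25 for the 69 subunits. Among the 15 subunits below a level of 8, 10 fell and 2 rose, with a median of -0.54. The 2 were Ndufb11 and Cox6a2, and the rise of Cox6a2 was fixed by the detection filter. Among the 23 at 12 or above, 16 fell and none rose, with a median of -0.32.

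The largest falls on that list were in Sdhaf4 and Atpif1. Sdhaf4, which helps Sdha join complex II, read 8.08, 8.34 and 8.00 in Tuni livers and 9.841, 10.001 and 9.95 in Ctrl livers (-1.79 ± 0.12, adjusted p = 6.69e-07). Atpif1, the inhibitor that holds back reverse running of ATP synthase, read 8.81, 9.07 and 9.02 in Tuni livers and 10.61, 10.65 and 10.59 in Ctrl livers (-1.65 ± 0.11, adjusted p = 6.37e-07). Both estimates lay below that of any tested subunit. Cox20, a chaperone of the mitochondrially made Cox2 protein, fell by 1.26 (adjusted p = 3.51e-06). The largest rises were in Ttc19 of complex III (1.07, adjusted p = 1.40e-05), Tmem126a of complex I (0.84, adjusted p = 0.000144) and Hccs, which attaches heme to the c-type cytochromes (0.74, adjusted p = 0.000132).

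**Figure D4:**
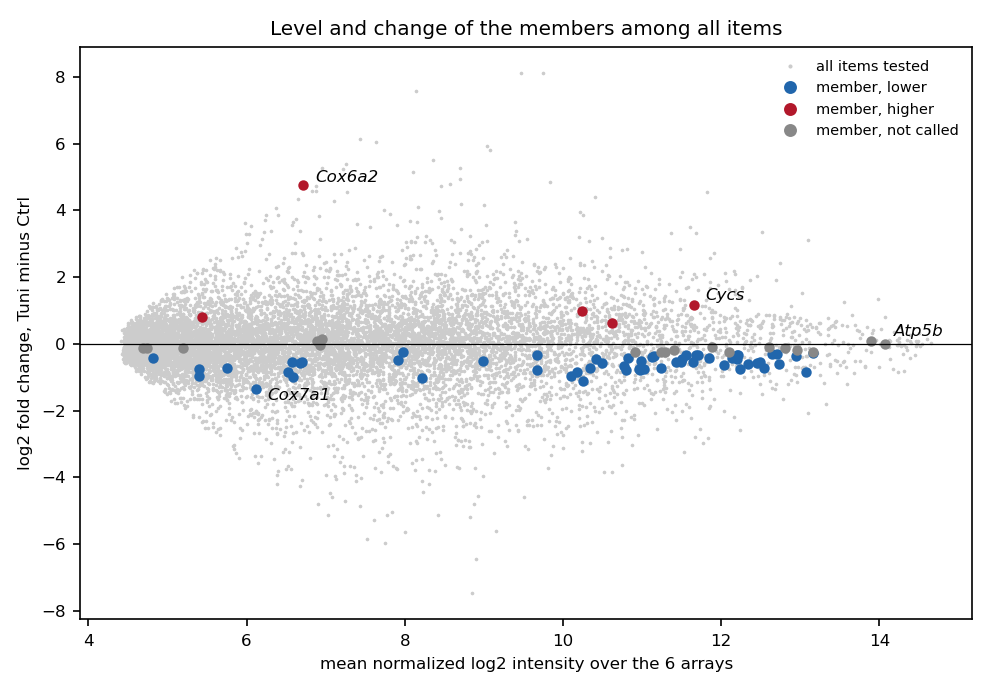
Mean normalized log2 intensity over the 6 arrays (x axis) against log2 fold change (y axis, Tuni minus Ctrl) for the 11678 items tested (grey) with the 79 respiratory genes in colour. The blue genes form a narrow band below 0 at all levels, and Cox6a2 at 4.75 is the gene farthest from it.

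Lists of genes that supply or regulate the chain are read against the same shares of all items, 31.4% lower and 31.0% higher. Of 8 other donors of electrons to ubiquinone, 5 fell and 1 rose (median -0.49). Sqor, which oxidises sulfide, read 5.65, 5.85 and 6.11 in Tuni livers and 6.97, 7.45 and 7.53 in Ctrl livers (-1.445, adjusted p = 3.85e-05). Etfdh, which takes electrons from fatty acid oxidation, fell by 0.82 (adjusted p = 0.000159), but its 3 probes ranged from -0.82 to 0.13. Dhodh, of pyrimidine synthesis, was the riser (0.36, adjusted p = 0.0124).

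Of 11 ubiquinone synthesis genes tested, 5 fell and 4 rose, against 31.4% and 31.0% of all items. A pair of related atypical kinases moved in opposite ways. Coq8b read 9.51, 9.31 and 9.60 in Tuni livers and 6.53, 6.50 and 6.71 in Ctrl livers (2.89, adjusted p = 3.30e-08). Coq8a read 4.53, 4.55 and 4.33 in Tuni livers and 6.44, 6.39 and 6.66 in Ctrl livers (-2.03, adjusted p = 2.86e-07), and was detected on 1 of 3 Tuni arrays. Neither pair of groups overlapped.

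Of 17 regulators of mitochondrial biogenesis and of mitochondrial DNA expression tested, 9 rose and 4 fell, with a median of 0.38, against 31.0% higher and 31.4% lower over all items. The difference from all items was not tested. Ppargc1b and Ppargc1a, coactivators known to act on respiratory genes, were among the 4 that fell, and the related Pprc1 rose. Whether these changes bear on the values of the respiratory genes was not tested. Ppargc1b read 4.70, 4.33 and 4.50 in Tuni livers and 7.64, 7.09 and 7.23 in Ctrl livers (-2.81 ± 0.16, adjusted p = 2.30e-07), detected on 1 of 3 Tuni arrays. Ppargc1a read 4.56, 4.44 and 4.22 in Tuni livers and 5.87, 5.68 and 6.07 in Ctrl livers (adjusted p = 6.52e-06). It was not above background on any Tuni array and was at least 2.50-fold lower. It passed the filter through the Ctrl arrays alone, so its fall among genes tested was fixed by the filter. Their relative Pprc1 rose, with 8.15, 8.09 and 7.95 in Tuni livers and 6.18, 6.37 and 6.43 in Ctrl livers (1.74, adjusted p = 6.11e-07).

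Tfam, which packages and transcribes mitochondrial DNA, was lower, at 7.22, 7.12 and 7.12 in Tuni livers against 7.97, 8.11 and 8.00 in Ctrl livers (-0.88, adjusted p = 3.46e-05). Polg2, the accessory subunit of its polymerase, fell by 1.25 (adjusted p = 2.18e-05). Tfb1m, a methyltransferase of mitochondrial ribosomal RNA, read 8.03, 8.31 and 8.19 in Tuni livers and 5.77, 5.96 and 6.09 in Ctrl livers (2.23, adjusted p = 2.21e-07). The transcription factors Nrf1 (0.62, adjusted p = 0.000456) and Gabpa (0.69, adjusted p = 0.00192), known activators of respiratory genes, rose. Cardiolipin synthase, Crls1, led the list of cristae and inner membrane genes (1.38, adjusted p = 1.80e-05, 4 probes from 1.01 to 2.10), of which 5 of 10 rose and 3 fell.

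The subunits encoded in mitochondrial DNA gave few calls. Of 7 tested, ATP6 alone passed (-0.44, adjusted p = 0.0469), with arrays that overlapped between the groups. Over all items, 62.5% were called and 31.4% were lower. ND4, a membrane subunit of complex I, read 14.23, 14.19 and 14.09 in Tuni livers and 14.19, 14.09 and 14.02 in Ctrl livers, which overlapped. The median of the 7 was -0.07, with COX2 at -0.47 (adjusted p = 0.121) and ND1 at -0.38 (adjusted p = 0.125) as the lower ones and CYTB at 0.10 as the highest. Before normalization the CYTB signals were lower on each Tuni array, at 17302 to 17479 in Tuni livers against 18040 to 19454 in Ctrl livers. Whether they differ from the nuclear-encoded subunits was not tested.

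**Figure D5:**
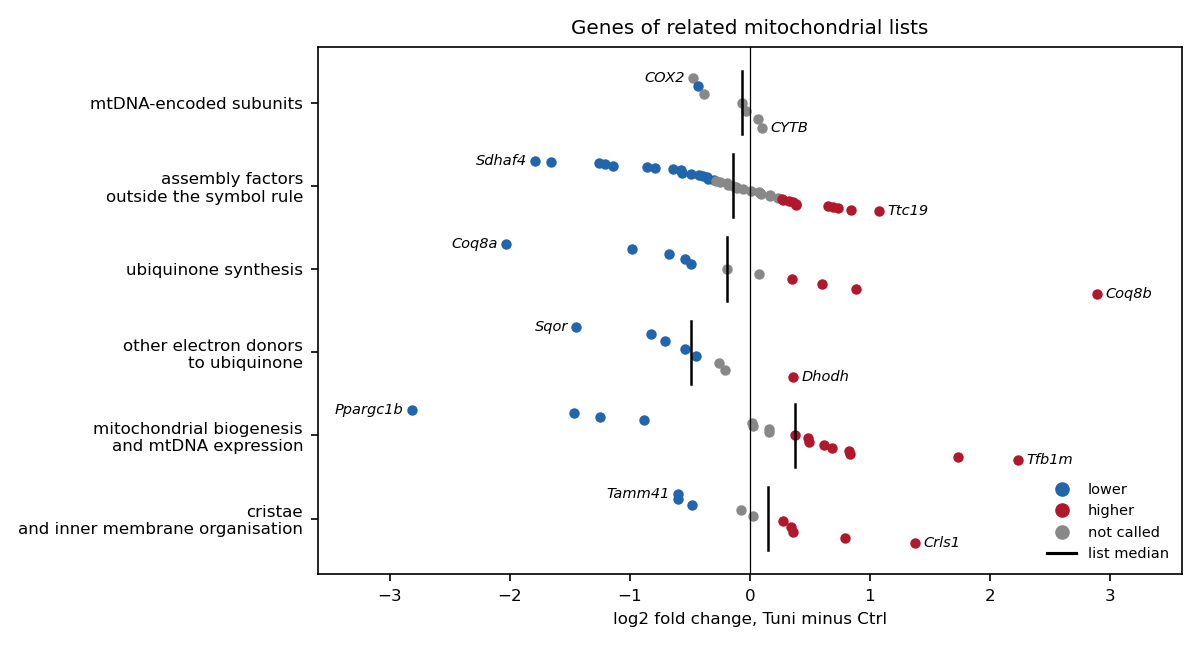
Log2 fold change (x axis, Tuni minus Ctrl) of each tested gene of 6 related lists, coloured by call, with the list median as a vertical bar. The medians run from -0.49 for other electron donors to 0.38 for mitochondrial biogenesis, with Ppargc1b at -2.81 and Coq8b at 2.89 as the extremes.

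Promoters of respiratory genes are known for sites of the factors NRF1, GABP (an ETS factor) and YY1. RefSeq promoter windows of GRCm38.p6, 250 bases before to 50 bases after a gene's start, were found for 73 of the 89 genes. They were searched on both strands for exact matches to CGCATGCG (NRF1 core, its own reverse complement), CCGGAAG (ETS), AAGATGGCG (YY1), TGATGNAA (the CARE element read by ATF4) and TGACGTCA (the cyclic AMP element, its own reverse complement). The letters were settled on after sequences had been seen, and a gene counts once if any of its windows matches. NRF1 letters stood in 12 of the 73 (16.4%) against 2.07% of 27025 genes. ETS letters stood in 18 (24.7%) against 9.93%, YY1 letters in 8 (10.96%) against 1.64% and TGACGTCA in 5 (6.85%) against 2.03%. TGATGNAA stood in none of the 73, against 4.51% of all genes. The genes of the comparison were not matched for base content, and these differences were not tested. Of the 48 genes with windows that fell, 15 held ETS, 8 NRF1 and 7 YY1 letters. Among the 15 with windows that were not called, 2 held ETS, 2 NRF1 and 1 YY1 letters. Of the 4 genes with windows that rose, Cycs and Ndufaf4 held NRF1 letters and Cycs also TGACGTCA. These are matches of letters in a window, not bound sites.

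The windows below show genes of either direction, with the matched letters in capitals and all sequences 5′ to 3′ on the gene's strand. The pair that rose comes first: Cycs lies at chr6:50566520-50566819 on the minus strand, with TGACGTCA from position 82 of the window and NRF1 letters from position 190, and Ndufaf4 at chr4:24897833-24898132 on the plus strand, with NRF1 letters from position 139.
Cycs: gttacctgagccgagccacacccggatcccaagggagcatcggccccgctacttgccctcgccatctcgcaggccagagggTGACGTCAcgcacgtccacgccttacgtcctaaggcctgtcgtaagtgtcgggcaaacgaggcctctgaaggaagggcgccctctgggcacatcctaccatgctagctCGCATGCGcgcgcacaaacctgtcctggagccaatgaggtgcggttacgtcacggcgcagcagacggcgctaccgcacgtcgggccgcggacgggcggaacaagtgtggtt
Ndufaf4: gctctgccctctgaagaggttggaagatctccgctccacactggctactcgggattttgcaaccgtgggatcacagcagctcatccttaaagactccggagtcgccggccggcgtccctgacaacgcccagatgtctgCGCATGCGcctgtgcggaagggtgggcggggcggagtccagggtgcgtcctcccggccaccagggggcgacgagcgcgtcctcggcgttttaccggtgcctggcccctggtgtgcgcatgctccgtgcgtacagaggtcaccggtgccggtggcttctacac
The other windows belong to genes that fell. Uqcrc1, at chr9:108936398-108936697 on the plus strand, holds the same NRF1 letters as Ndufaf4, from position 282. Sdhb, at chr4:140961021-140961320 on the plus strand, holds ETS letters from position 257. Atp5j, at chr16:84834927-84835226 on the minus strand, the first of its windows, holds NRF1 letters from position 104, YY1 letters from 163 and ETS letters from 190. Atp5j codes for coupling factor 6 of the stalk and was 1.501-fold lower (-0.59 ± 0.10), although a dimmer second probe gave 0.08.
Uqcrc1: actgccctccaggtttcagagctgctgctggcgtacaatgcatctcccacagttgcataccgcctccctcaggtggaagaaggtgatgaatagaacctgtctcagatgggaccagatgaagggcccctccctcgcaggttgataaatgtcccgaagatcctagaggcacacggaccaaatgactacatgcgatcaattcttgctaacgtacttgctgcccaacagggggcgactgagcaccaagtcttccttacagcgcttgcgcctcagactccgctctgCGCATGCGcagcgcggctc
Sdhb: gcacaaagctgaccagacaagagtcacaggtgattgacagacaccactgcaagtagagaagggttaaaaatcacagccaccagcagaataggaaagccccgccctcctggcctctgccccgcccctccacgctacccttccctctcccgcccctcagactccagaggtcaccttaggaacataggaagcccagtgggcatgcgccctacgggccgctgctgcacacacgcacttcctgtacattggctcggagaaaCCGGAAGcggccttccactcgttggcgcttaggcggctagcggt
Atp5j: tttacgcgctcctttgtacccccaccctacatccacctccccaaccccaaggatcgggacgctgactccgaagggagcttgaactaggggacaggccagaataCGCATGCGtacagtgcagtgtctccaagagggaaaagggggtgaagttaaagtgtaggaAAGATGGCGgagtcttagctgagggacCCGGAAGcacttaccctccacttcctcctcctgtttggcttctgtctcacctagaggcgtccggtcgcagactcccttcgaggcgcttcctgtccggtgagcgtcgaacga
NRF1 letters thus stood in windows of genes of either direction.

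The choice of probe matters for some of these genes. Of the 25 genes with more than 1 probe above background, 15 had the same call from every probe, 10 had called and uncalled probes, and none had probes called in opposite directions. Of the 61 calls, 15 were lost under at least 1 other setting or with 1 array left out: those of Atp5c1, Atp5g2, Atp5j, Atp5k, Atp5l, Cox6c, Ndufa4, Ndufa6, Ndufab1, Ndufaf8, Ndufb5, Ndufb9, Ndufs6, Ndufv1 and Ndufv2. Of all 16559 probes kept, 61.5% were called when tested 1 by 1. The 10 genes that were not tested, Atp5md, Cox4i2, Cox6b2, Cox7b2, Cox8b, Cox8c, Ndufaf6, Ndufs1, Sdha and Uqcrfs1, had raw means between 86.4 and 95.7, near the array medians. Catalytic subunits known to be needed in liver are among them, and a dim probe does not by itself show a low transcript. Cox8a, Atp5g1 and Ndufa4l2 are not analysed here.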

How the data were processed

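The deposited intensity, an average bead signal per probe, and the deposited detection p-value beside it are, per the file headers, the values of each of the 6 arrays, 3 per group. From the values, the signals were neither background-subtracted nor normalized. Scanner and software are not stated in the labels. In limma 3.58.1 (R 4.3.3), background was corrected by normexp from the detection p-values, 16 was added as offset, and arrays were quantile-normalized on the log2 scale, which understates the change of dim genes. Probes detected (p under 0.05) on 3 or more arrays were kept (16559). Names came from the platform annotation: 34885 probes had 1 symbol, 18 had several and 10378 had none here. Each gene took its probe with the highest mean raw signal, and unnamed probes stayed single items (11678 in all, 9332 of them named genes).

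Tuni was compared with Ctrl in limma (lmFit, eBayes). P-values were two-sided and adjusted over all items by Benjamini and Hochberg, with a threshold of 0.05. Errors of fold changes are standard errors. The number of arrays limits the precision. Where a probe was not detected on any array of a group, the fold is a lower bound, for which each dim array took its own value or the lowest detected one, whichever was higher. The labels do not say that replicate numbers pair the arrays, and the main fit used no pairing. Deviations of same-numbered arrays correlated at 0.117, 0.0541 and 0.0037. Differently numbered arrays were not compared in this way, so these values cannot decide whether arrays were paired. The members, lists and tests were chosen with earlier results of these data known, and the list of mitochondrially encoded subunits was added later. Named genes are index subunits, the 3 largest called falls and rises per complex, isoform groups, up to 4 genes with disagreeing probes and up to 3 largest changes per list. Others were named after their values were seen. Only the limma fit and its calls were tested on simulated data, in the form of log2 values, not the steps before or after it.

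Alternatives were scaling to 1 median, no background correction, an offset of 50, other detection filters and probe rules, a second deposited table of intensity values, eBayes with trend, a replicate block and leaving out each array. Figures used matplotlib 3.10.9.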

Additional observations from a re-analysis of the deposited data

How the results depend on the processing

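Over 17 alternatives, 46 of the 61 called genes were called wherever they were tested, 15 lost the call at least once, and none reversed. Some genes not called in the main fit gained a call, 8 of them when each array was scaled to 1 median. The genes lower numbered 54 to 64 under the alternatives that kept all arrays and 45 to 56 with 1 array left out, and those higher 4 or 5. Cox6a2 is the gene missing where 4 rose, because it no longer met the detection rule. The most calls, 11, were lost without Ctrl replicate 2. With the replicate block 54 genes fell and 5 rose, 2 calls were lost and all medians were as reported. With each array scaled to 1 median, the medians were -0.53 for complex I, -0.60 for complex III, -0.52 for complex IV and -0.72 for complex V. With cyclic loess, chosen after seeing the data, they were -0.51, -0.53, -0.40 and -0.69 for the same complexes. With no background correction they were -0.35 for complex I, -0.74 for complex II, -0.31 for complex V and -0.0352 for the assembly factors. An offset of 50 gave -0.42 for complex I and -0.43 for complex V, and the mean of a gene's probes gave -0.53 and -0.42. The second deposited table gave -0.41 for complex I and -0.74 for complex II. With no detection filter the complex IV median was -0.12, and 11.6% of 29453 items were lower and 11.7% higher. With 1 array left out, the medians ranged from -0.49 to -0.44 for complex I, -0.94 to -0.78 for complex II, -0.50 to -0.41 for complex III, -0.36 to -0.24 for complex IV, -0.61 to -0.55 for complex V and -0.2204 to -0.0212 for the assembly factors. The cause of these shifts was not tested. Signals near background limit what can be said of the dim genes, whose folds shrink with a larger offset, and 3 arrays per group limit all estimates.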
